A study of Mus musculus with 8 samples.

Results

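The genes described here are 32 genes of cholesterol synthesis and sterol transport, out of 55450 genes in the count tables. They were found by their GENCODE M21 symbols, on a list of 18 synthesis enzymes, 5 regulators of the SREBP pathway and 9 genes of sterol transport, storage and turnover. All 32 symbols matched 1 gene identifier each, and 31 genes had enough reads to be tested. The remaining gene, Mvd, had 0 reads in all libraries. They were measured in nuclear RNA of GABAergic neurons, the inhibitory neurons of the cerebral cortex, from juvenile mice. In both groups a Cre driver restricted to GABAergic neurons switched on a loxP-controlled fluorescent protein in nuclei, and fluorescent nuclei were sorted from single frozen cortices. Mutant mice (Thra+/AMI) carried in addition a loxP-controlled mutant Thra allele, switched on by the same driver, whose product is a thyroid hormone receptor that blocks the normal one (dominant-negative). Control mice (Thra+/+) carried no Thra mutation. The labels used here name neither the Cre line nor the exact age. The tables of mutants 7 and 10 held the same counts in all 55220 genes compared, 21975 of them with reads, a difference below sampling noise, and they were used as 1 sample, called mutant 7 here. Each comparison is thus of 4 controls with 3 mutants.

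Neurons need cholesterol for their membranes and synapses, and the brain makes its own because plasma lipoproteins do not cross the blood-brain barrier. Acetyl-CoA is turned into isoprenoids by the enzymes of the mevalonate arm, and isoprenoids are turned into squalene, lanosterol and cholesterol by those of the sterol arm. The transcription factor SREBP2, product of Srebf2, switches on these enzymes when sterols in the endoplasmic reticulum run low, and INSIG proteins hold it back with SCAP when sterols are plentiful. Oxysterols, made when sterols are plentiful, activate the LXR receptors, which switch on the exporters ABCA1 and ABCG1. LXR and thyroid hormone receptors both pair with RXR and can both bind direct repeats with a spacer of 4 bases.

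The promoters of 4 genes of the set are shown first, with the motif of interest in capitals. Abca1 and Hsd17b7 passed the threshold given below in the fit of all libraries, and Hmgcs1 and Msmo1 did not. They are RefSeq windows of 300 bases in GRCm38.p6, from 250 bases before to 50 bases after the start of the gene, written 5′ to 3′ on the gene's own strand. Promoters of 26 of the 32 genes were found in that table, in 36 windows, and none was found for Abcg1. For Abca1 (chr4:53159846-53160145, minus strand) the capitals mark a match on the opposite strand to GGTNA, 5 bases of any kind and GGTCA, a loose form of the direct repeat with a spacer of 4 bases, 67 to 53 bases before the start. For Hsd17b7 (chr1:169969156-169969455, minus strand) they mark 3 CCAAT boxes on the opposite strand, the site of NF-Y, a common partner of SREBP. For Hmgcs1 (chr13:119690101-119690400, plus strand) and Msmo1 (chr8:64733529-64733828, minus strand) they mark TCACNCCA, the core of the sterol regulatory element to which SREBP binds.
Abca1: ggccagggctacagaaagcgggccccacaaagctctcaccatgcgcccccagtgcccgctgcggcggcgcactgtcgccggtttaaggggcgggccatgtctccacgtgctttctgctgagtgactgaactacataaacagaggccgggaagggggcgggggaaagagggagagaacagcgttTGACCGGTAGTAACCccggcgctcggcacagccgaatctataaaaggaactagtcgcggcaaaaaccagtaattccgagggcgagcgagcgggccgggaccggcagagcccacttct
Hsd17b7: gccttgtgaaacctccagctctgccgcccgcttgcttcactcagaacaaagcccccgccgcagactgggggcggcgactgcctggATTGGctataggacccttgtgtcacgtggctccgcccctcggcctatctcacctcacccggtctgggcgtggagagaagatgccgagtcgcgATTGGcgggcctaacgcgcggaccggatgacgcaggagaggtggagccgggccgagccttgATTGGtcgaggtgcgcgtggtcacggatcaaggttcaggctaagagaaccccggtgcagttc
Hmgcs1: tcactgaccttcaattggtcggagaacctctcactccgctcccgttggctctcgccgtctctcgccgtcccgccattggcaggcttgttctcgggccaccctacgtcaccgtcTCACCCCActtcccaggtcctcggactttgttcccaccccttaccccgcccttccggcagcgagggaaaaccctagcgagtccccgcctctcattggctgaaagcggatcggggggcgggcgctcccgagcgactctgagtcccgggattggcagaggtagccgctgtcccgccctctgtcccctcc
Msmo1: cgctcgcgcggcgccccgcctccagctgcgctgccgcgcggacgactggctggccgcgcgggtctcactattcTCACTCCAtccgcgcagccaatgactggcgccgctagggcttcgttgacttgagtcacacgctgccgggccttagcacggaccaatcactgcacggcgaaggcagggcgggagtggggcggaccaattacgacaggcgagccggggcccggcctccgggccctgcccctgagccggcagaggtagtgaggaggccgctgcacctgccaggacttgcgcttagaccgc
Both strands were searched for each motif. The sterol regulatory element core TCACNCCA was found in 4 of the 36 windows (Apoe, Hmgcs1, Msmo1 and Srebf2), a share of 11.1%, and in 4.36% of all 32851 promoter windows of the same length. CCAAT was found in 22 of the 36 windows (61.1%) and in 37.4% of all windows. The half-site AGGTCA was found in 5 of the 36 windows (13.9%) and in 16.3% of all, and AGGTCA followed by 4 bases of any kind and a second AGGTCA in 0 of the 36 windows and 0.0152% of all. The looser motif of GGTNA, 5 bases of any kind and GGTCA, chosen after the promoter of Abca1 had been read, was found in windows of Abca1 and Srebf1 and in 0.207% of all windows, and can overlap AGGTCA. A match describes the letters of the window only.

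Total counts ran from 11797788 to 13804734 in controls and from 10747169 to 12941251 in mutants. Levels are counts per 1000000 counts of the library (CPM) scaled by TMM, which corrects the library total for composition, and are compared within a gene only. Thra itself was at 105.5 to 125.5 CPM in controls and at 77.6 to 96.3 CPM in mutants (edgeR adjusted p 0.0543), with both alleles summed. The GABAergic markers Gad1 and Gad2 were at 520.1 to 663.8 and 367.0 to 497.3 CPM over all libraries. Controls 1 and 4 stood apart from the other libraries by the genomic length of genes. In control 1 genes under 10 kb lay 0.27 above and genes over 100 kb 0.35 below their mean over libraries (median log2 values 0.27 and -0.35). In control 4 the medians were -0.19 and 0.36, and in the other 5 libraries they lay between -0.07 and 0.07. The 32 genes have a median length of 18.2 kb, beside 23.8 kb over all tested genes. Of the 32, 31 are under 100 kb, as are 13919 of the 16448 tested genes. Because controls 1 and 4 stood apart, the main counts are also given without them, from controls 2 and 3 and the 3 mutants.

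Of the 31 tested genes 3 passed the threshold of an adjusted p under 0.05 over all 16448 tested genes (edgeR quasi-likelihood test). Hsd17b7, a keto-sterol reductase of the sterol arm, rose, and the cholesterol exporters Abca1 and Abcg1 fell. These 3 are 9.68% of the tested genes of the set, against a background of 9.42% called among all tested genes (4.63% higher and 4.78% lower), so the share called in the set was near the background. The median log2 fold change of the 31 genes was 0.15, with 21 above 0 and 10 below, against -0.01 over all tested genes, of which 48.0% were above 0. The CPM ranges of the groups did not overlap in 11 of the 31 genes (35.5%), 7 with mutants higher and 4 with mutants lower, where the share over all tested genes was 22.0% (11.2% higher and 10.7% lower). An unadjusted p under 0.05 was found for 12 of the 31, 8 higher and 4 lower, against 22.5% of all tested genes (10.9% higher and 11.7% lower). In sorted nuclei in bulk, fewer nuclei of a type and less RNA per nucleus cannot be told apart. The plot of log2 fold changes sets the 4 roles side by side.

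**Figure D1:**
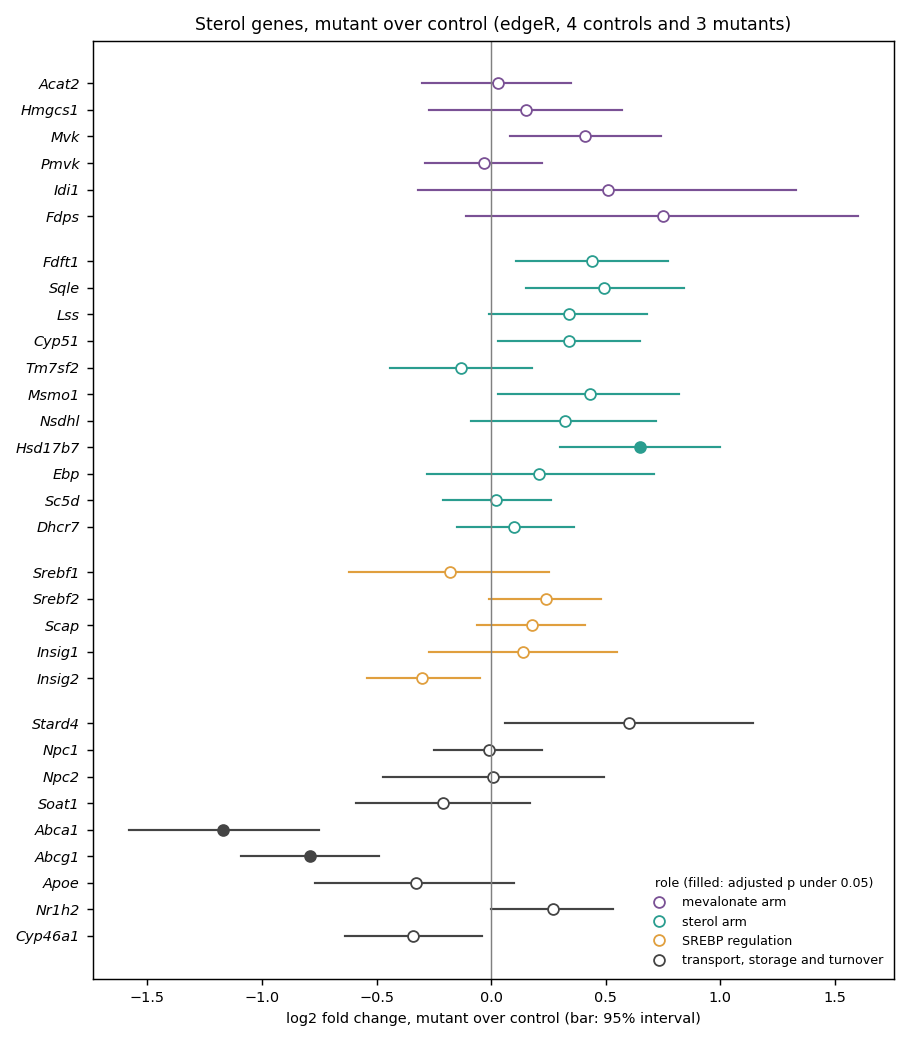
Log2 fold change of mutant over control (x axis) for the 31 tested genes, grouped by role, with 95% intervals from the edgeR fit; filled points have an adjusted p under 0.05. The points of the sterol arm lie mostly right of 0, up to 0.65 for Hsd17b7, and those of Abca1 (-1.17) and Abcg1 (-0.79) lie farthest left.

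The exporters showed the largest differences of the set. Abca1 (ENSMUSG00000015243.4, GRCm38 chromosome 4, 53030787 to 53159895, minus strand) encodes the transporter that loads cholesterol onto lipid-poor apolipoproteins. It was at 30.1, 27.8, 25.0 and 43.6 CPM in controls 1 to 4 and at 12.9, 15.4 and 14.0 CPM in mutants 6, 7 and 8. Control 4 was the highest library, and every mutant lay below every control. The mean went from 31.6 ± 8.26 CPM (SD, n = 4) to 14.1 CPM (n = 3), with a log2 fold change of -1.17 and an SE of 0.19 (edgeR adjusted p 0.00251), which makes controls 2.24-fold higher. Without controls 1 and 4 the log2 fold change was -0.91 (adjusted p 6.51e-05), and without control 4 alone it was -0.97 (adjusted p 0.000259). Abca1 passed in all 14 alternatives, at -1.26 to -0.91 on the log2 scale and with 0.023 as the highest adjusted p.

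Abcg1 (ENSMUSG00000024030.7, chromosome 17, 31057675 to 31117988, plus strand) encodes a half-transporter that moves cholesterol to lipoprotein particles. It was at 53.9, 56.1, 55.0 and 70.3 CPM in controls 1 to 4 and at 33.6, 29.7 and 38.7 CPM in mutants 6, 7 and 8. Control 4 was again the highest, the other controls lay close together, and the groups did not overlap. The log2 fold change was -0.79 (SE 0.14, edgeR adjusted p 0.00346), with controls 1.73-fold higher. Abcg1 too passed in all 14 alternatives, at -0.88 to -0.69, and it was at -0.71 (adjusted p 8.67e-05) without controls 1 and 4.

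Glial cells also express Abca1, Abcg1 and Apoe, so markers of other cells were read in the same libraries. The 7 markers of glutamatergic neurons summed to 236.0 to 336.9 CPM in controls and to 215.3 to 266.7 CPM in mutants, which overlapped. With all libraries edgeR called 0 of these 7. Slc17a6, at 6 to 42 reads per library, passed as higher without controls 1 and 4. The 8 astrocyte markers summed to 154.1 to 274.3 CPM in controls, highest in control 4, and to 169.2 to 202.5 CPM in mutants, so the groups overlapped. Of 7 tested astrocyte markers 1 was called, Sox9, which rose (log2 fold change 1.37, SE 0.23, edgeR adjusted p 0.00281). The median over the 7 astrocyte markers was -0.25 on the log2 scale, with 4 of 7 below 0. These 4 were Aqp4 (-0.41), Slc1a2 (-0.33), Aldh1l1 (-0.33) and Gja1 (-0.25), which did not pass. Slc1a3 (0.04) and S100b (0.08) lay above 0 and did not pass either. Of 26 tested markers of astrocytes, oligodendrocytes, microglia and endothelial cells 2 were called, both higher, Sox9 and the myelin gene Mog (0.93, adjusted p 0.00545), a share of 7.69% beside the 9.42% of all tested genes. Without controls 1 and 4 the count was 4, all higher, a share of 15.4% beside a background of 16.7% in that fit. The genes added were the microglial receptor Csf1r (0.61, adjusted p 0.0399) and the astrocyte transporter Slc1a3 (0.43, adjusted p 0.0427). Csf1r, at 0.61 with an adjusted p of 0.055 in edgeR, also passed with DESeq2, limma-voom and the length offset and without control 4. Summed endothelial markers were at 44.9 to 94.8 CPM in controls and 46.2 to 67.5 CPM in mutants, and all 6 had a log2 fold change below 0, from -0.51 to -0.08, with 0 called by edgeR or by DESeq2 and 0 at an unadjusted p under 0.05. Summed oligodendrocyte markers were at 152.2 to 179.3 CPM in controls and 170.8 to 199.7 CPM in mutants. All 8 had a log2 fold change above 0, from 0.07 to 0.93, with a median of 0.13, and Mog alone was called by edgeR. Summed microglial markers were at 13.2 to 18.1 CPM in controls and 18.2 to 21.7 CPM in mutants, which did not overlap. Most of this difference came from Csf1r, with means of 7.42 CPM in controls and 11.3 CPM in mutants. The other tested microglial markers were Cx3cr1 (-0.01), C1qa (0.04), Tmem119 (-0.05) and C1qb (0.22, from 12 to 40 reads per library). Of the defining markers, Gfap and P2ry12 had 0 reads, but both lie wholly within other genes, where the tables hold no reads. The part of other cells in the fall of Abca1 and Abcg1, or in the higher values of synthesis enzymes, was not tested.

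**Figure D2:**
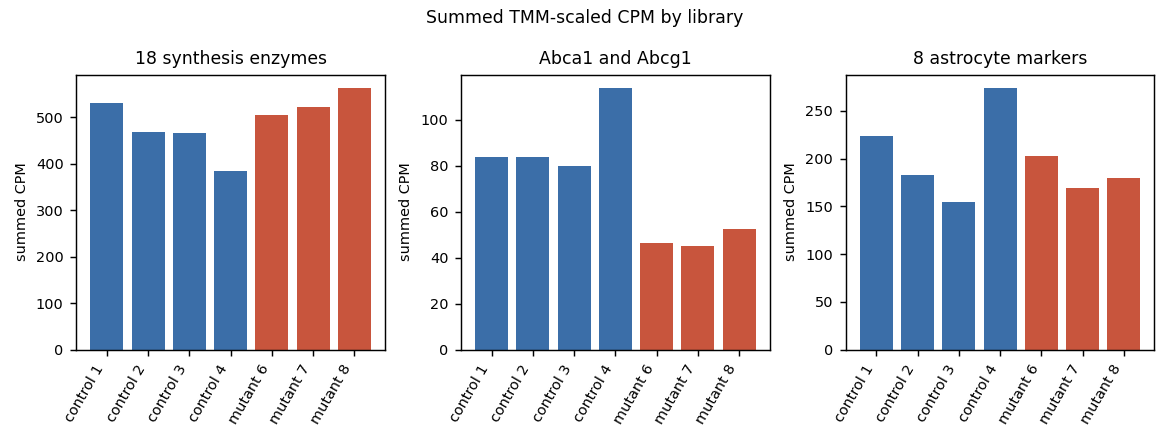
Summed CPM (y axis) by library for the 18 synthesis enzymes, for Abca1 with Abcg1, and for the 8 astrocyte markers; blue bars are controls and red bars are mutants. Abca1 with Abcg1 were at 80.0 to 114.0 CPM in controls and 45.2 to 52.7 CPM in mutants, whereas the groups overlapped in the other 2 sums.

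The remaining genes of sterol transport and turnover were not called. Apoe, the main apolipoprotein of the brain and a carrier for exported cholesterol, was at 84.5, 48.5, 46.2 and 51.7 CPM in controls 1 to 4 and at 48.7, 38.1 and 50.4 CPM in mutants 6, 7 and 8. Only control 1 lay apart, and the difference of -0.33 on the log2 scale (SE 0.20, edgeR adjusted p 0.368) became -0.09 without that library. Cyp46a1 encodes the neuronal hydroxylase that turns cholesterol into the oxysterol that leaves the brain. It was at 481.4, 429.2, 473.6 and 373.8 CPM in controls 1 to 4 and at 361.4, 347.2 and 333.4 CPM in mutants 6, 7 and 8. The groups did not overlap, but control 4 came close to mutant 6. Its log2 fold change of -0.34 (SE 0.14, 95% interval -0.64 to -0.04) had an edgeR adjusted p of 0.158. Cyp46a1 passed in 4 of 14 alternatives, among them without controls 1 and 4 (-0.38, adjusted p 0.00611), and not in the other 10.

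Nr1h2, which encodes the LXR receptor LXRβ, was at 32.7, 32.9, 37.5 and 29.3 CPM in controls 1 to 4 and at 37.8, 39.0 and 42.6 CPM in mutants 6, 7 and 8. Control 3 lay just below mutant 6, and the log2 fold change was 0.27 (SE 0.12, edgeR adjusted p 0.221). Stard4, a carrier that moves sterol between membranes, was at 6.19, 5.44, 5.48 and 3.31 CPM in controls 1 to 4 and at 6.42, 7.34 and 9.46 CPM in mutants 6, 7 and 8. Every mutant lay above every control, mutant 6 by little, and the log2 fold change was 0.60 (SE 0.25, edgeR adjusted p 0.168) from 41 to 121 reads per library. Npc1 and Npc2, which pass cholesterol out of lysosomes, had log2 fold changes of -0.01 (95% interval -0.25 to 0.22) and 0.01 (-0.47 to 0.49). Npc1 was at 43.1, 46.9, 46.5 and 44.1 CPM in controls and at 49.1, 41.7 and 43.2 CPM in mutants, where mutant 6 lay above and mutant 7 below every control. Soat1, which esterifies cholesterol for storage, was at 20.9 to 24.7 CPM in controls and 15.8 to 26.0 CPM in mutants (-0.21, 95% interval -0.59 to 0.17).

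In the sterol arm, which leads from farnesyl diphosphate to cholesterol, 10 of the 11 enzymes had a log2 fold change above 0, with a median of 0.34. Over all tested genes 48.0% were above 0. In the arm 1 gene was called (9.09%), near the 9.42% of all tested genes. That gene, Hsd17b7 (ENSMUSG00000026675.12, chromosome 1, 169949535 to 169969241, minus strand), was at 13.8, 16.9, 15.2 and 11.1 CPM in controls 1 to 4 and at 21.7, 23.8 and 21.6 CPM in mutants 6, 7 and 8. Every mutant lay above every control. The log2 fold change was 0.65 (SE 0.16, edgeR adjusted p 0.0243), a 1.57-fold rise. The call was lost without control 3 (0.69, adjusted p 0.0534), mutant 6 (0.67, adjusted p 0.0811), mutant 7 (0.61, adjusted p 0.118) or mutant 8 (0.68, adjusted p 0.0796), and held at 0.48 (adjusted p 0.0296) without controls 1 and 4.

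Sqle, the squalene epoxidase and a rate-setting step of the arm, was at 35.5, 26.8, 30.1 and 21.5 CPM in controls 1 to 4 and at 39.5, 37.6 and 43.1 CPM in mutants 6, 7 and 8. The groups did not overlap, and the spread among controls was wider than among mutants. At a log2 fold change of 0.49 (SE 0.16) it did not pass in edgeR (adjusted p 0.0749), but it passed without controls 1 and 4 (0.50, adjusted p 0.00584), without control 1 (0.62, adjusted p 0.00933) and with DESeq2 (0.50, adjusted p 0.0499). Fdft1, the squalene synthase, was at 22.4, 24.1, 20.9 and 23.1 CPM in controls 1 to 4 and at 28.9, 25.3 and 38.0 CPM in mutants 6, 7 and 8. Mutant 8 was the highest, and the log2 fold change of 0.44 (adjusted p 0.0963) became 0.27 without it. Lss, the lanosterol synthase, was at 9.76, 9.52, 11.5 and 10.2 CPM in controls 1 to 4 and at 12, 13.5 and 13.3 CPM in mutants 6, 7 and 8, again without overlap (0.34, adjusted p 0.233).

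Cyp51, Msmo1, Nsdhl and Ebp, which act after lanosterol, also had values above 0, with overlapping groups. Cyp51, which starts the demethylation of lanosterol, was at 31.2 to 47.2 CPM in controls and 46.5 to 53.4 CPM in mutants (log2 fold change 0.34, SE 0.14, adjusted p 0.171). Msmo1, a methyl-sterol oxidase, was at 26.4 to 49.7 CPM in controls and 44.0 to 56.5 CPM in mutants (0.43, SE 0.18, adjusted p 0.182). It passed in 4 of 14 alternatives, among them without controls 1 and 4 (0.45, adjusted p 0.0107), and not in the other 10. The dehydrogenase Nsdhl (0.32) and the isomerase Ebp (0.21) had wide intervals, from -0.09 to 0.72 and from -0.28 to 0.71. The last enzymes lay close to 0, with 95% intervals of -0.21 to 0.26 for the desaturase Sc5d and -0.15 to 0.36 for the reductase Dhcr7. Tm7sf2, a sterol reductase, was the enzyme of the arm below 0 (-0.13, 95% interval -0.44 to 0.18).

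**Figure D3:**
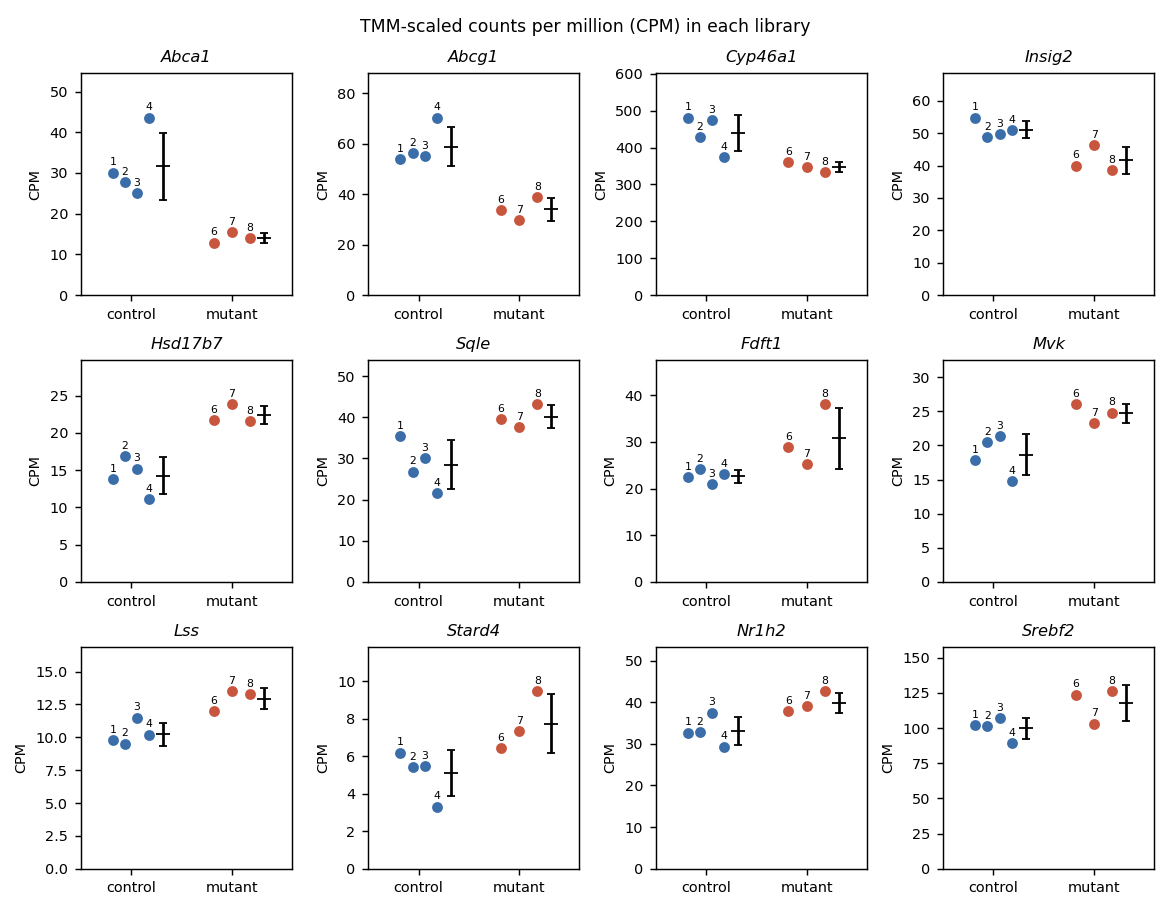
CPM (y axis, from 0) of 12 genes in each control (blue, 1 to 4) and mutant (red, 6 to 8), with the mean and SD of each group in black. The panels hold all 11 of the 31 tested genes whose groups do not overlap (35.5%, beside 22.0% of all tested genes). Their share of the panels thus follows from the choice of genes. The other panel is Srebf2, where mutant 7 (103.1 CPM) lies below control 3 (106.9 CPM).

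In the mevalonate arm 5 of 6 tested enzymes had a log2 fold change above 0 (83.3%, beside 48.0% of all tested genes), with a median of 0.28. None was called by edgeR or DESeq2, while 1 had an unadjusted p under 0.05. That enzyme, Mvk, the mevalonate kinase, was at 17.8, 20.5, 21.4 and 14.8 CPM in controls 1 to 4 and at 26.0, 23.3 and 24.8 CPM in mutants 6, 7 and 8. The groups did not overlap, and the log2 fold change was 0.41 (SE 0.15, edgeR adjusted p 0.125). It passed in the fit with an offset for genomic length (0.41, adjusted p 0.0494). Hmgcs1, the synthase that feeds the arm, was at 48.1, 36.6, 31.2 and 25.3 CPM in controls 1 to 4 and at 32.9, 43.6 and 41.1 CPM in mutants 6, 7 and 8. Its controls spanned more than its mutants, and the log2 fold change was 0.15 (95% interval -0.27 to 0.57). The thiolase Acat2 (0.03) and the phosphomevalonate kinase Pmvk (-0.03) lay near 0. The isomerase Idi1 (0.51, SE 0.38) rested on 18 to 74 reads per library and was at 0.02 without mutant 8. The farnesyl diphosphate synthase Fdps (0.75, SE 0.39) rested on 7 to 31 reads per library.

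Overlap with other genes bears on some counts of this arm. All 1351 protein-coding genes whose whole span lies within other genes had 0 reads in every library, against 24.7% of the 11728 that share no base with another gene and 5.47% of the 8872 that share part of their span. Mvd, the mevalonate diphosphate decarboxylase, lies wholly within the span of Gm20388, so its 0 does not bear on whether the gene is expressed. Fdps shares 89.7% of its span with other genes, Lss 44.1% and Hmgcs1 34.6%, and how reads of a shared stretch were counted is not given in the sources used here. Summed over the 18 enzymes, synthesis was at 530.2, 469.0, 465.6 and 384.8 CPM in controls 1 to 4 and at 505.6, 522.2 and 563.7 CPM in mutants 6, 7 and 8. Control 1 lay within the mutants and control 4 was the lowest.

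None of the 5 regulators was called by edgeR or DESeq2, and 1 had an unadjusted p under 0.05. Srebf2, which encodes SREBP2, was at 102.2, 101.3, 106.9 and 89.3 CPM in controls 1 to 4 and at 123.7, 103.1 and 126.1 CPM in mutants 6, 7 and 8. Mutants 6 and 8 were the highest and mutant 7 lay among the controls, and the difference was 0.24 on the log2 scale (SE 0.11, edgeR adjusted p 0.241). Srebf1, which encodes the SREBP1 forms that act more on fatty acid synthesis, was at 17.4, 12, 18.2 and 13.0 CPM in controls 1 to 4 and at 16.4, 11.4 and 12.1 CPM in mutants 6, 7 and 8, with overlapping ranges (-0.18, 95% interval -0.62 to 0.25). Scap, the escort of SREBP to the Golgi, had a log2 fold change of 0.18 (95% interval -0.06 to 0.41).

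The 2 INSIG genes differed in sign. Insig1, itself a target of SREBP, was at 23.1, 14.1, 19.9 and 14.1 CPM in controls 1 to 4 and at 19.1, 21.2 and 18.5 CPM in mutants 6, 7 and 8, with overlap (0.14, 95% interval -0.27 to 0.55). Insig2 was at 54.8, 48.8, 49.6 and 51.0 CPM in controls 1 to 4 and at 40.0, 46.3 and 38.5 CPM in mutants 6, 7 and 8. Every mutant lay below every control, and the difference was -0.30 on the log2 scale (SE 0.11, edgeR adjusted p 0.134). It passed, at -0.32 (adjusted p 0.0447), in the fit with an offset for genomic length. The difference between the 2 genes was not tested.

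The number of genes called differed with the libraries used, also with those that do not stand apart by gene length. It was 2 without control 3 or without any 1 mutant, where the background was 4.35% to 6.25%. Control 1 was the highest control in 8 and control 4 the lowest in 12 of the 17 tested synthesis enzymes. Leaving out both thus also narrows the spread of controls, and leaves only controls 2 and 3. Without controls 1 and 4, 7 of the 31 genes were called, Fdft1, Hsd17b7, Msmo1 and Sqle higher and Abca1, Abcg1 and Cyp46a1 lower, where 16.7% of all tested genes were called (8.17% higher and 8.48% lower). With an offset fitted on genomic length 9 were called, 5 higher and 4 lower, where the background was 16.8% (7.97% and 8.85%). With limma-voom and sample quality weights 8 were called, 5 higher and 3 lower, where it was 19.1% (9.59% and 9.54%). DESeq2 called 4, adding Sqle, where it was 11.1% (5.42% and 5.68%). All genes of the sterol arm called without controls 1 and 4, with the length offset, with limma-voom or with DESeq2 were higher in mutants. In the plot of settings the exporters stay called throughout, and Hsd17b7 is called in 10 of its 14 alternatives.

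**Figure D4:**
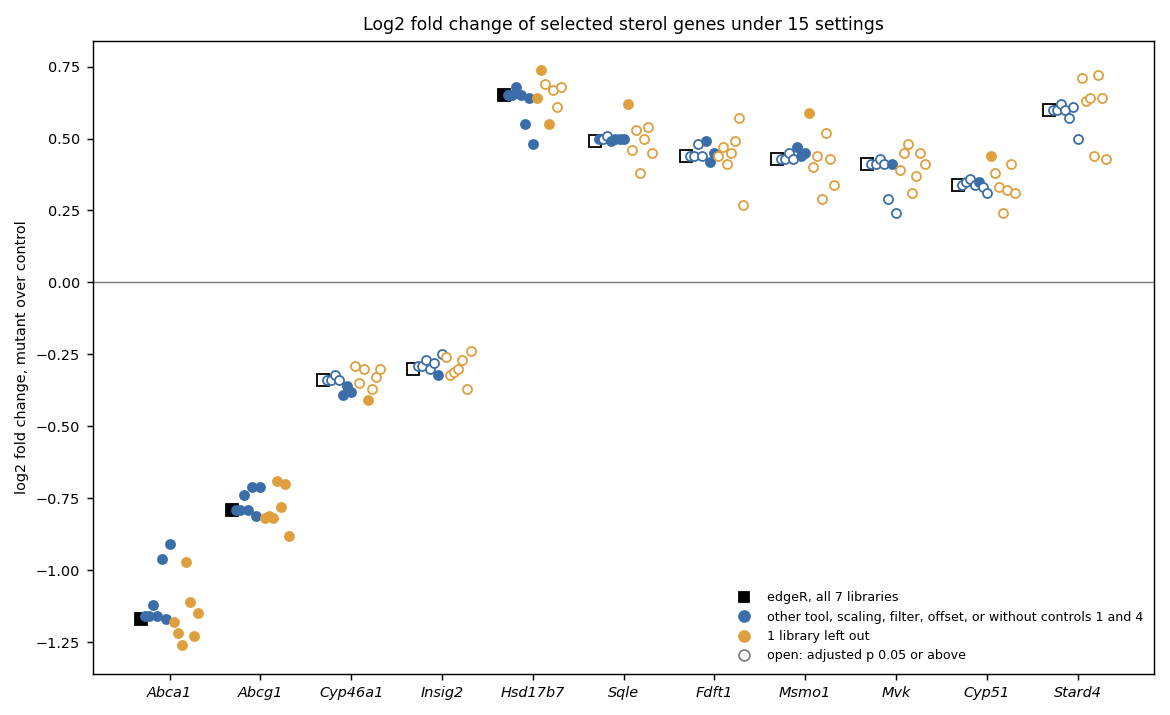
Log2 fold change of mutant over control (y axis) of 11 genes in the edgeR fit of all 7 libraries (black square) and in 14 alternatives (blue: another tool, scaling, filter or offset, or without controls 1 and 4; orange: 1 library left out); filled points have an adjusted p under 0.05. All points of Abca1 and Abcg1 are filled. None of the 11 genes shown changes sign, whereas some genes of the set near 0, not shown here, do.

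Further sterol and lipid genes outside the set were read from 6 lists. Of 64 tested genes 8 were called (12.5%), 1 higher and 7 lower, with a median log2 fold change of -0.02, beside a background of 9.42% (4.63% higher and 4.78% lower). Without controls 1 and 4 the count was 14, 4 higher and 10 lower (21.9%, background 16.7%), and without any 1 library it was 3 to 11. The genes that passed without those 2 controls but not in the fit of all libraries, named after their values were seen, were Lrp8 (0.29), Vldlr (0.34) and Aacs (0.42), higher, and Osbpl8 (-0.39), Mbtps1 (-0.37) and Pdss1 (-0.33), lower. Among 13 tested genes of lipoprotein uptake and lysosomal sterol handling 2 were called (15.4%, background 9.42%). Lipa, the lysosomal lipase that frees cholesterol from its esters, was at 55.3, 56.5, 57.8 and 61.7 CPM in controls 1 to 4 and at 32.7, 34.6 and 32.3 CPM in mutants 6, 7 and 8. The groups lay far apart (log2 fold change -0.80, SE 0.11, edgeR adjusted p 0.000612), and Lipa passed in all 14 alternatives. Osbpl2, an oxysterol-binding protein, fell by less (-0.40, adjusted p 0.0199) and was not called with library totals alone (-0.36) or without control 2, control 3 or any 1 mutant (-0.41 to -0.39, highest adjusted p 0.106).

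Among 14 tested lipogenic SREBP targets 3 fell and 1 rose (28.6%, background 9.42%). Acss2, which makes acetyl-CoA from acetate, was at 75.0, 81.8, 78.9 and 85.9 CPM in controls 1 to 4 and at 52.1, 39.0 and 43.6 CPM in mutants 6, 7 and 8 (log2 fold change -0.84, SE 0.12, edgeR adjusted p 0.00104). It passed in all 14 alternatives, although other genes overlap 49.4% of its length. The elongase Elovl5 (-0.48) and Pnpla3 (-0.37) fell and the desaturase Fads2 (0.61) rose, with adjusted p-values of 0.0232, 0.0488 and 0.0243. These 3 calls did not hold in all alternatives. Elovl5 was lost with library totals alone (-0.44) and without control 3, mutant 6 or mutant 8 (-0.49 to -0.42), Fads2 without control 2, control 3, mutant 6 or mutant 8 (0.54 to 0.59), and Pnpla3 with library totals alone (-0.34), with no filter (-0.37) and without control 2, control 3 or any 1 mutant (-0.40 to -0.33).

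Cyp11a1 encodes the mitochondrial enzyme that cuts the cholesterol side chain at the start of steroid synthesis. Of 7 tested oxysterol and steroid genes 1 was called, Cyp11a1 (14.3%, background 9.42%). It was at 21.3, 20.0, 18.7 and 18.7 CPM in controls 1 to 4 and at 6.88, 2.85 and 6.33 CPM in mutants 6, 7 and 8. The groups lay far apart, with mutants at -1.86 on the log2 scale (SE 0.25, edgeR adjusted p 0.000618), and the gene passed in all 14 alternatives. Of 9 tested LXR and nuclear receptor targets outside the set 1 was called (11.1%, background 9.42%). That gene, the transporter Abca5, fell (-0.40, adjusted p 0.0276). Its call was lost with library totals alone (-0.37) and without control 2, control 3 or any 1 mutant (-0.44 to -0.33). None of the 9 tested genes of SREBP processing was called by edgeR or DESeq2 and 0 had an unadjusted p under 0.05, but Mbtps1, a protease that releases SREBP, passed as lower without controls 1 and 4 (-0.37, adjusted p 0.00851) and with limma-voom (-0.32, adjusted p 0.0258). None of the 12 tested isoprenoid and remaining sterol enzymes was called by either tool in the fits of all libraries. Among them 1 had an unadjusted p under 0.05, Aacs, named after its values were seen (0.34, adjusted p 0.107). Aacs passed as higher without control 1 (0.43, adjusted p 0.0214), with limma-voom (0.37, adjusted p 0.0155) and without controls 1 and 4, where Pdss1 passed as lower (-0.33, adjusted p 0.0187).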

How the data were processed

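Nuclear RNA of sorted GABAergic nuclei was measured in 8 samples. Libraries were Nextera XT on SMART-Seq v4 cDNA, read in pairs on a NextSeq, per the labels' protocols. These kits do not mark strand or single molecules. The deposited values are whole-number read counts per gene, and no normalization by the authors is recorded per the labels. The submitters' processing notes name Bowtie2 2.5.3 and the build GRCm38 (mm10), and the counting program is not given in the sources used here. All 55450 identifiers matched GENCODE M21 (GRCm38), which gave symbols and coordinates.

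The table of mutant 10 repeats that of mutant 7 and was left out, which changes the 4 mutants of the design to 3. Chi-square per degree of freedom was 5.23 to 7.17 between mutants and 5.57 to 64.6 between controls. Total counts were 10747169 to 13804734, and every library is 1 cortex.

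The test was that of edgeR 4.0.16 in R 4.3.3 (filterByExpr with least count 10 and least total count 15, TMM, robust quasi-likelihood fit, group as the only term, two-sided, Benjamini-Hochberg over all tested genes). The SE is the size of the log2 fold change divided by the square root of F. Alternatives were DESeq2 1.42.0, limma 3.58.1 (voom with quality weights), other scalings, no filter, an offset from genomic length, and leaving out libraries. The fits were also run on simulated counts that held no trend by gene length. That run thus does not bear on the departure of controls 1 and 4, and its outcome is not reported here. The members and lists were chosen with earlier results of these data known. Members are given in full by library if called, if their groups do not overlap, or if among 10 genes set in the design. Genes of other lists are named if called; the gene farthest from 0 in a list with no call is not reported here. Promoters are from RefSeq (GRCm38.p6).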

Additional observations from a re-analysis of the deposited data

Results flagged for a closer look

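The control group was searched for values far from the rest, since 3 mutants are too few. Dixon's ratio (the gap from the extreme control to its neighbour, over the full spread of the 4) was above its 95% critical value in 3 of 35 values, where chance alone marks about 1 in 20, that is 1.8. For Apoe, control 1 read 84.5 CPM beside 46.2 to 51.7 CPM in the other controls. For Abcg1, control 4 read 70.3 CPM beside 53.9 to 56.1 CPM. For Acat2, control 4 read 26.8 CPM, below the 37.1 to 39.1 CPM of the rest.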

How the results depend on the processing

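No paired analysis was possible because the groups share no replicate number. Of the values of 31 genes in 14 alternatives each, 392 kept their direction and side of the threshold, 21 passed where edgeR did not, 4 lost a call (all Hsd17b7) and 17 changed sign, in 5 genes near 0. Called genes in all numbered 3147 with limma-voom, 2766 with the length offset, 2778 without controls 1 and 4, and 734 to 2347 without any 1 library (4.35% to 14.5% of those tested). Called genes of the set numbered 8 (5 higher), 9 (5 higher, 4 lower) and 7 (4 higher) in the first 3 of these, 2 to 6 (0 to 4 higher, 2 to 3 lower) without any 1 library, and 2 were higher with DESeq2 and without a filter. In the 4 fits with 0 higher genes, that set had the same 2 lower genes. Sign changes were as follows. Acat2 was at -0.04 with limma-voom, at -0.08 without controls 1 and 4, and at -0.08 to 0.10 without 1 library. Npc1 was at 0.02 with library totals and at -0.09 to 0.04 without 1 library. Without 1 library, Npc2 was at -0.12 to 0.18, Pmvk at -0.09 to 0.01 and Sc5d at 0.00 to 0.09. The summed level of transport genes separated the groups after TMM (log2 ratio -0.32) but not by library totals (-0.29). The share of promoters with a motif was 11.1% for TCACNCCA, 61.1% for CCAAT and 5.56% for the looser repeat. Depth limits Idi1, Fdps and Stard4 most.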

Other observations

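The 4 controls differed in how they ranked across the set. Control 4 was the lowest control in 18 of the 31 tested genes and in 12 of the 17 tested synthesis enzymes, and control 1 was the highest in 14 and in 8. The exporters Abca1 and Abcg1, at 129.1 and 60.3 kb longer than most genes of the set, were highest in control 4. Controls 1 and 4 also differ most by gene length, and the part of length in these orders was not tested.

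Both X-linked genes of the set, Nsdhl and Ebp, can be set beside reads of 4 Y-linked genes, of which control 4 had 4, mutant 8 had 3 and each other library between 5094 and 6644. Nsdhl was at 13.5 CPM in control 4 and 9.75 to 13.3 CPM in the other controls, and at 18.5 CPM in mutant 8 and 13.1 to 13.3 CPM in the other mutants, so it was highest in the library of each group that lacked Y-linked reads. Ebp was lowest in control 4 (5.97 CPM) and highest in mutant 8 (11.3 CPM) within their groups. Each group has 1 such library, and a difference by sex was not tested.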
